A study of Mus musculus with 24 samples.

Results

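The Kruppel-like factors (KLFs) described here are 10 genes, Klf2, Klf3, Klf4, Klf6, Klf7, Klf9, Klf10, Klf11, Klf13 and Klf15, taken by gene symbol from the 53465 genes of the deposited table. All 10 were among the 15493 genes that passed a filter of 5 or more normalized reads in at least 6 mice of a genotype. The cells were CD31-positive brain endothelial cells sorted from single mice, of strain C57BL/6J by the labels, kept in light and dark of 12 h each, and every mouse gave 1 library. Controls were Bmal1fl/fl mice, in which both copies of Bmal1 (Arntl) carry loxP sites but no Cre is present. Mutants were Bmal1fl/fl; Tie2cre mice, in which Cre is driven by the Tie2 (Tek) promoter, active in endothelium and in part of the blood lineage, so that the deletion is not limited to brain vessels. The alleles are floxed in both genotypes, Cre was present in the mutants alone, both male and female mice were used per the methods, and neither the sex of each mouse nor age is given in the labels. Brains were taken at 6 times of day from ZT2 to ZT22 at steps of 4 h (ZT0 is lights on), from 2 mice per genotype and time, which makes 12 mice per genotype and 24 in all. Library totals lay between 6136404 and 6648311 normalized reads, after the authors had brought the libraries to similar size.

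KLFs are zinc-finger transcription factors that bind GC-rich and CACCC sequences, and they share this domain with the SP proteins. Klf2 and Klf4 are induced in endothelium by laminar shear stress through the MEKK3, MEK5 and ERK5 kinases and MEF2 factors, and they maintain an anti-thrombotic, anti-inflammatory state. Several KLFs are also immediate-early genes that respond within minutes to growth factors or handling, while Klf9, Klf10 and Klf15 are known as clock-linked or glucocorticoid-induced members in other tissues. BMAL1 acts with CLOCK at E-boxes, and the comparisons here ask how the level and the daily course of these genes differed with Bmal1 loss in brain endothelium.

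A split among the libraries was seen before any comparison. The 8 libraries of ZT6 and ZT18 carry consecutive numbers in their titles, over both genotypes, and mitochondrial genes took 2.68% to 3.90% of their reads, against 5.78% to 17.4% in the other 16. Summed microglial markers (8 genes, among them Cx3cr1 and P2ry12) were at 181 to 303 RPM (reads scaled to a common library size) in these 8 and at 1571 to 4262 in the other 16, and none of the 8 markers was at 0 in any library. Summed endothelial markers (Pecam1, Cdh5, Cldn5 and 5 others) were at 15730 to 17258 RPM against 9908 to 14786, so that the labelled cell type was present in every library. Time of day and this set of libraries cannot be told apart at ZT6 and ZT18. Among the other 16, the 2 ZT14 controls had the highest mitochondrial shares, 17.4% and 15.3%. They also had the lowest scaling (TMM) factors of all libraries, 0.873 and 0.896. Reads printed for single mice are without such factors. The ZT2 control labelled replicate 1 and the 2 ZT14 mutants carry title numbers apart from the other libraries. The part of these differences in the KLF values was not tested. The targeted gene, Arntl, had 195 reads in controls and 226 in mutants on average, and a count over the whole gene does not check the removal of 1 exon. Of 14 clock genes, 7 differed in level between genotypes (adjusted p under 0.05, edgeR), 6 lower and 1 higher in mutants, with log2 differences of -2.26 for Nr1d1 (standard error 0.34) and 0.89 for Cry1 (standard error 0.14).

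Promoter sequence was taken from RefSeq (GRCm38.p6), which held 9 of the 10 members, and was searched on both strands for the letters through which the clock and shear pathways are known to act. The 9 windows of 250 bases before to 50 bases after the start were rich in G and C, from 58.3% in Klf7 to 77.7% in Klf11, where the median of 32851 mouse promoters was 52.7%. The E-box CACGTG was found in 4 of the 9, those of Klf4, Klf6, Klf11 and Klf15, and in 7.15% of all promoters. It began at position -182 from the start in Klf4, -214 in Klf11 and -43 in Klf6. Klf15 held 3, at -228, at -172 and, across the start itself, at -3. The MEF2 element was found in Klf2 alone, at -118, and in 3.19% of all promoters. The D-box TTATGNAA, the ROR/REV-ERB element, the serum response element and the glucocorticoid receptor core AGAACA were in none of the 9, and in 3.38%, 0.384%, 1.63% and 19% of all promoters. TGACG was in 6 of 9 (20.8% of all promoters; in Klf15 1 of its 2 matches overlaps an E-box), CACCC in 6 of 9 (57.5%) and the GC box GGGCGG in 8 of 9 (35.7%). The sequences with an E-box or MEF2 element are printed 5′ to 3′ in the gene's direction, with those matches in capitals. Each run ends at the RefSeq start, or earlier where the GENCODE gene begins before that start. In Klf15 the run ends at the start, inside the E-box that crosses it.
Klf2: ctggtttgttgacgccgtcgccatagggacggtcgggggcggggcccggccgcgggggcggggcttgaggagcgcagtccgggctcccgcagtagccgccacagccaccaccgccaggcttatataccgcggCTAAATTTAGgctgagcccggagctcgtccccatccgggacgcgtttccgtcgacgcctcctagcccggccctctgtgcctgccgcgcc
Klf4: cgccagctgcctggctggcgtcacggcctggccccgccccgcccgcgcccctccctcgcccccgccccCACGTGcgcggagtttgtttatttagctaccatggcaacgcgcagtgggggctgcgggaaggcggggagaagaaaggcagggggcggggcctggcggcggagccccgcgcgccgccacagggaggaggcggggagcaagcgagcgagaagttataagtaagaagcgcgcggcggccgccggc
Klf6: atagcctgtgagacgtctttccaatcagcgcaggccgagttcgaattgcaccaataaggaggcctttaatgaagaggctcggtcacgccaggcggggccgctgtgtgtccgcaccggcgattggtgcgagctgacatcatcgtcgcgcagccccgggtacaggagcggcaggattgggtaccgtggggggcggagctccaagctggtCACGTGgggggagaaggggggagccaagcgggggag
Klf11: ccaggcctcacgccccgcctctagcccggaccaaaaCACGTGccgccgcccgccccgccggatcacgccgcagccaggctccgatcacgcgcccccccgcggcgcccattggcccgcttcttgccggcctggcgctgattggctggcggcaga
Klf15: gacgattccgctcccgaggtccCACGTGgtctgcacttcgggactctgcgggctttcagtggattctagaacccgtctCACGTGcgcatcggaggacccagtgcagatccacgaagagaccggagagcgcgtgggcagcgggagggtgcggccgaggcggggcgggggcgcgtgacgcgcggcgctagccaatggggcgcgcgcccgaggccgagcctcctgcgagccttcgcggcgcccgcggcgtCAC
They lie at chr8:72318812-72319032 (plus strand), chr4:55532476-55532725 (minus), chr13:5861239-5861481 (plus), chr12:24651121-24651273 (plus) and chr6:90462326-90462575 (plus). A match of letters is a description of the window and not a binding site.

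Per length, brain endothelium held the members at levels that spanned more than 2 orders of magnitude, with the shear-responsive Klf2 and Klf4 on top. In RPKM (reads per kilobase of exon, with GENCODE M21 exons, on the RPM scale), Klf2 (ENSMUSG00000055148) stood at 308 ± 106 in controls and 422 ± 171 in mutants (SD, n = 12 each), and Klf4 (ENSMUSG00000003032) at 212 ± 78.4 and 278 ± 128. Klf6 (ENSMUSG00000000078), an immediate-early member first described in injured liver, followed at 69.1 ± 19.98 and 84.0 ± 22.9. Klf2 was above Klf4, Klf4 above Klf6, and Klf6 above the next member in each of the 24 mice. Klf9, Klf13 and Klf7 were next, at 23.6 ± 6.51, 23.5 ± 4.17 and 22.4 ± 3.85 in controls, and these neighbours did not differ beyond their spread, since Klf9 was above Klf13 in 6 of 12 control and 5 of 12 mutant mice. Klf10 (15.8 ± 5.13), Klf3 (14.3 ± 1.72) and Klf11 (12.5 ± 3.90) formed the next tier, in which Klf10 was above Klf3 in 8 of 12 control and 4 of 12 mutant mice. Klf15, a metabolic and glucocorticoid-induced member in liver, heart and muscle, was lowest at 1.36 ± 0.991 in controls and 1.88 ± 0.817 in mutants, with 2 to 66 reads per library.

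**Figure D1:**
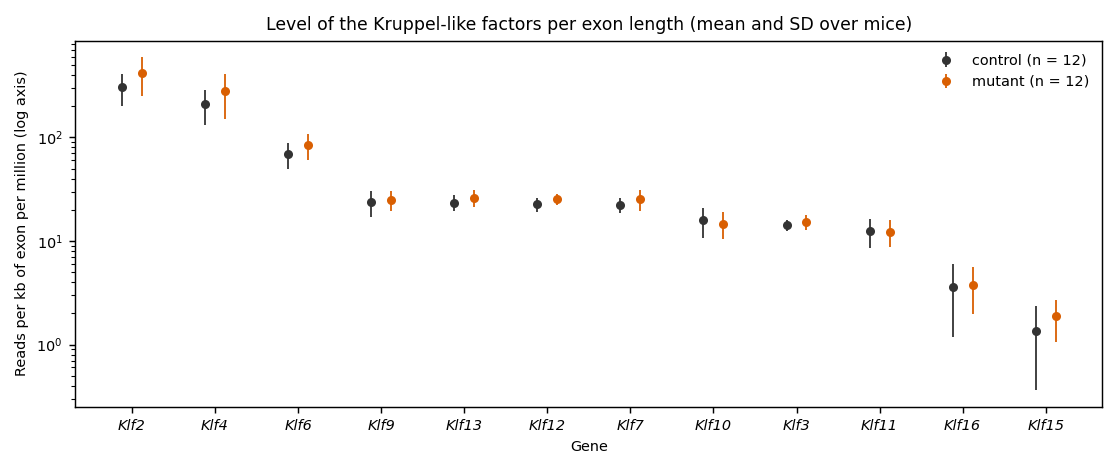
Mean level and SD (bars, 12 mice per genotype) of the 10 members with Klf12 and Klf16, in RPKM on a log axis, for control (black) and mutant (orange) mice. Klf2 and Klf4 lie between 212 and 422 in both genotypes, Klf9, Klf13, Klf12 and Klf7 lie between 22.4 and 26.2, and Klf15 is lowest.

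In the same annotation (GRCm38) the members lie on 10 different chromosomes, Klf2 at chr8:72319033-72321656 (plus), Klf3 at chr5:64803388-64832901 (plus), Klf4 at chr4:55527143-55532466 (minus), Klf6 at chr13:5861482-5870394 (plus), Klf7 at chr1:64029447-64122282 (minus). The others are Klf9 at chr19:23141226-23168134 (plus), Klf10 at chr15:38291463-38300706 (minus), Klf11 at chr12:24651274-24662789 (plus), Klf13 at chr7:63886351-63938915 (minus), Klf15 at chr6:90462576-90475238 (plus). The reads counted are those on their exons.

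Of 16 further KLF and SP genes, 10 passed the filter. Klf12, a repressor that recruits CtBP, was at 22.5 ± 3.48 RPKM in controls, the range of Klf7 and Klf13, and Klf16 was at 3.603 ± 2.42. The erythroid Klf1, and Klf14 and Klf17, had 0 reads in all 24 libraries, and Klf5 and Klf8 had at most 19 and 32 reads in a library. The ubiquitous Sp1 (22.0 ± 2.15) and Sp3 (31.6 ± 5.24) were at levels like those of the middle members. None of these 10 differed in level between genotypes at an adjusted p under 0.05 (edgeR), and 3 of 10 had an unadjusted p under 0.05, Klf12 (log2 fold change 0.17), Sp2 (0.32) and Sp4 (-0.27).

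By genotype, the members with the highest levels had higher means in mutants, but none reached the threshold over all genes. At an adjusted p under 0.05 (edgeR, time point as a factor) 0 of 10 members differed, where 0.271% of all genes tested did. At an unadjusted p under 0.05 there were 3 of 10, Klf2, Klf4 and Klf6, all with a higher mean in mutants, where 6.95% of all genes passed in either direction and 3.78% were higher in mutants. Over the 10 alternatives the highest unadjusted p was 0.0504 for Klf2, 0.240 for Klf4 and 0.105 for Klf6, and DESeq2 gave Klf4 0.0549. The median log2 fold change of mutant over control was 0.15 for the members and 0.00 for all genes tested, and 8 of 10 were above 0. DESeq2 also called 0 of 10, and a fit on every gene with a read called 2, Klf2 and Klf4 (adjusted p = 0.000211 and 0.00655), where 0.56% of all genes were called. Cell type markers differed in sign between lists, and 0 were called at an adjusted p under 0.05. By log2 fold change, 7 of 8 endothelial and 7 of 8 microglial markers were above 0 (medians 0.08 and 0.08), and 0 of 7 astrocyte (-0.21), 1 of 6 oligodendrocyte (-0.59), 1 of 6 neuronal (-0.10) and 0 of 5 red blood cell markers (-0.34) were. Of 8 pericyte and smooth muscle markers 5 were above 0 (median 0.03). An unadjusted p under 0.05 was found for 3 of 5 red blood cell, 2 of 8 endothelial, 2 of 7 astrocyte and 2 of 6 oligodendrocyte markers. For the microglial, neuronal, and pericyte and smooth muscle markers it was found for 0. Summed red blood cell markers ran from 365 to 1362 RPM in controls and from 243 to 1101 in mutants. The part of these cell types in the KLF values was not tested.

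Klf2 had 1745, 3633 and 5559 reads in controls (lowest, median, highest of 12) and 2065, 4843 and 8394 in mutants. Its means were higher in mutants at 5 of 6 time points, and 9 of 12 mutants lay above the control median, while the ranges overlapped. At ZT14 the controls had 2517 and 4440 reads and the mutants 5475 and 6669. These are the controls with the highest mitochondrial shares and the mutants with title numbers apart. The part of either in this gap was not tested. At ZT18 the controls had 5559 and 4290 and the mutants 6642 and 8394. At ZT2 the genotypes overlapped and the control mean was higher, with 2907 and 2169 in controls and 2668 and 2065 in mutants. The mutant mice were thus above both controls at ZT6, ZT14, ZT18 and ZT22, and the fitted difference was 0.39 on the log2 scale (standard error 0.12), with an adjusted p of 0.282 (unadjusted 0.00281). Within the ZT6 and ZT18 libraries it was 0.48 (adjusted p = 0.222), and within the other 16 libraries 0.33 (adjusted p = 0.861). The labels give 2 i5 index sequences. Outside ZT6 and ZT18 all mutants share an index, which the controls have at ZT14 and ZT22 but not at ZT2 and ZT10. Genotype and index thus cannot be told apart at ZT2 and ZT10. With the index in the edgeR fit the difference was 0.57 (adjusted p = 0.140).

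Klf4 had 1838, 3714 and 6813 reads in controls and 2208, 4652 and 9484 in mutants, and its mean was higher in mutants at 6 of 6 time points. The gap was widest at ZT18, where the controls had 6813 and 4528 reads and the mutants 9484 and 9145. At ZT6 the controls had 5437 and 5213 reads and the mutants 7714 and 5812. At ZT22 the controls were far apart, with 5361 and 1838 reads, and the mutants close, with 4599 and 4464. The fitted log2 difference was 0.32 (standard error 0.13), with an adjusted p of 0.554 (unadjusted 0.0171). It was 0.56 within the ZT6 and ZT18 libraries (adjusted p = 0.157) and 0.19 within the others (adjusted p = 0.945), and the difference between these, 0.36 (standard error 0.26), had an unadjusted p of 0.179. With 1 library left out this difference ran from 0.21 to 0.49 (p from 0.0279, without replicate 2 of the ZT22 controls, to 0.439), and over the alternatives its lowest p was 0.0185, in the fit on every gene with a read. Its adjusted p was at least 0.968 throughout.

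Klf6 had 949, 1974 and 2965 reads in controls and 1296, 2188 and 3413 in mutants, and 10 of 12 mutants were above the control median. The fitted log2 difference was 0.27 (standard error 0.10), with an adjusted p of 0.529 (unadjusted 0.0139). The ZT22 control labelled replicate 2 was the lowest of the 12 controls for 6 of 10 members, Klf2, Klf4, Klf6, Klf10, Klf3 and Klf13, with 1745, 1838, 949, 181, 820 and 807 reads. Without it the fold changes of Klf2, Klf4 and Klf6 fell to 0.32, 0.25 and 0.20, and 0 of 10 members were called.

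Immediate-early genes lay in the same direction as these 3 members. Of 13 such genes, among them Fos, Egr1 and Dusp1, 12 had a positive log2 fold change (mutant over control, median 0.28) and 8 had an unadjusted p under 0.05, while 0 passed the adjusted threshold. Jun, the gene of this list with the most reads, stood at 0.31 (standard error 0.10, adjusted p = 0.282), and Dusp1 at 0.36 (standard error 0.12, adjusted p = 0.394). Their summed level ran from 3781 to 13406 RPM in controls (median 9431) and from 4848 to 14514 in mutants (median 11145). Their part in the KLF values was not tested.

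In the main edgeR fit the other 7 members had unadjusted p-values between 0.0819 (Klf7) and 0.858 (Klf11). Over the alternatives the lowest unadjusted p was 0.0156 for Klf7, 0.0403 for Klf10 and 0.0492 for Klf13. Their lowest adjusted p-values there were 0.619, 0.863 and 0.648. Klf7, which acts in neuronal growth and fat, had 841 to 1366 reads in controls and 797 to 1814 in mutants. Its log2 fold change was 0.15 (standard error 0.08) and ran from 0.06 to 0.32 over the alternatives. Klf13, a T cell and heart factor that recruits SIN3A, had 807 to 1407 and 891 to 1577 reads. Its log2 fold change was 0.14 (standard error 0.08). That value ran from 0.09 to 0.17 with 1 library left out and from 0.08 to 0.21 over the alternatives. Klf3, a CtBP-dependent repressor, had 820 to 1260 and 783 to 1367 reads (0.08, standard error 0.08; 0.05 to 0.12 with 1 library left out), the smallest spread of the 10 in controls relative to its mean. Klf9 had 424 to 1007 and 470 to 1029 reads (0.09, standard error 0.08; 0.06 to 0.13 with 1 library left out). The TGF-beta-inducible repressors Klf10 (181 to 635 and 171 to 572 reads) and Klf11 (229 to 567 and 214 to 517) gave -0.11 (standard error 0.14) and -0.02 (standard error 0.12). With 1 library left out these ran from -0.19 to -0.04 and from -0.06 to 0.03, and over the alternatives from -0.37 to 0.02 and from -0.04 to 0.12, so that neither kept its sign. Klf15 gave the highest fold change and the widest error, 0.55 (standard error 0.42), on 2 to 59 reads in controls and 18 to 66 in mutants. It ran from 0.08 in the ZT6 and ZT18 libraries to 0.78 in the others, and from 0.37 to 0.76 with 1 library left out. Its 2 mice of a group differed by up to 10-fold, at ZT14 in controls (2 and 20 reads).

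**Figure D2:**
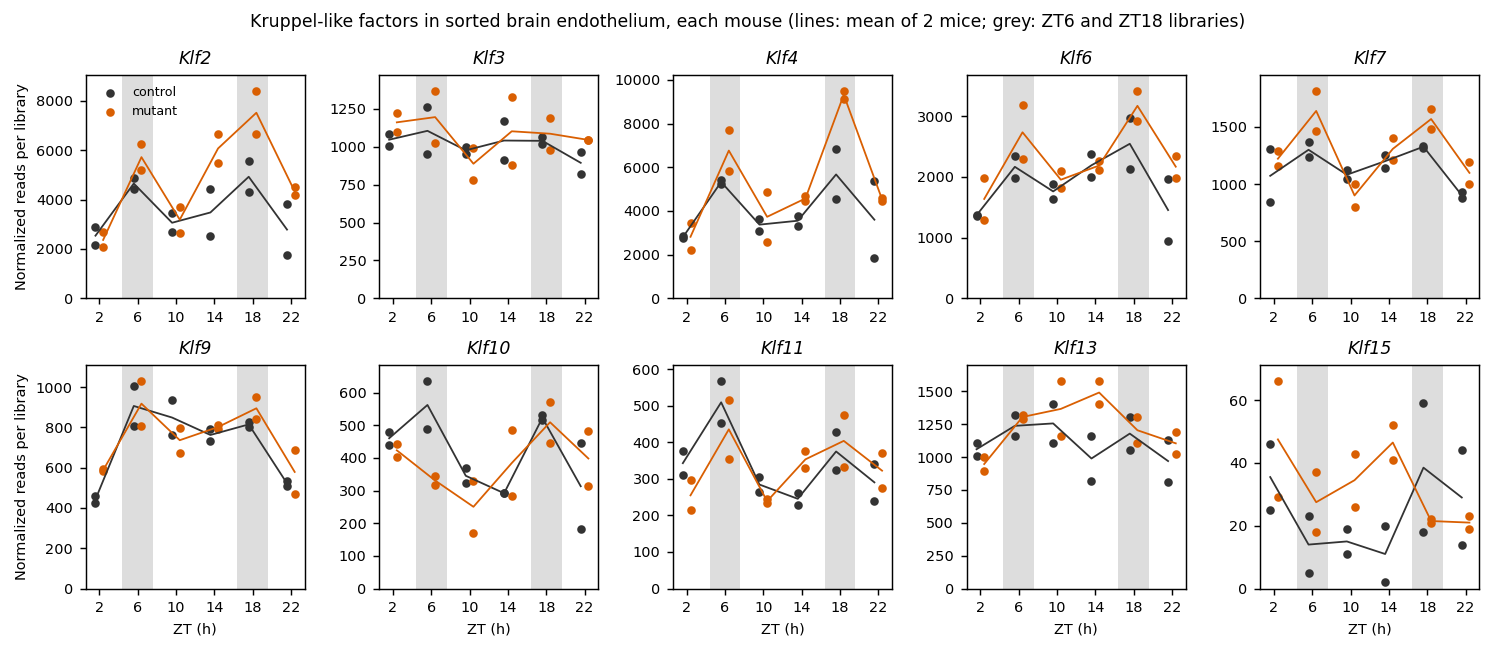
Normalized reads per library (y axis from 0, own scale per gene) against ZT in hours for each member, with control mice in black and mutant mice in orange, lines through the mean of 2 mice, and grey bands on the ZT6 and ZT18 libraries. Klf2 and Klf4 peak inside the grey bands with the mutants highest at ZT18, and Klf9 in controls is low at ZT22 and ZT2.

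Across the day, Klf9 was the member with the lowest rhythm p-values in controls, by meta2d and by edgeR. Klf9 encodes a repressor that is induced by glucocorticoids and thyroid hormone. Its 4 control mice at ZT22 and ZT2 had 511, 533, 424 and 461 reads, and the 8 controls of the other times had 733 to 1007, so the ranges did not overlap. In mutants the same times gave 688, 470, 582 and 593 reads against 675 to 1029 at the others, with an overlap. These 2 time groups were chosen after the values were seen and were not tested. The share of all genes whose ranges part in this way was not counted, so the gap cannot be weighed against it.

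The tests of 24-h rhythm differed for Klf9 with the model. By meta2d, the method of the study, 0 of 10 members were called in controls or mutants at q under 0.6, where 0.31% of all genes were called in controls and 0.0387% in mutants. Klf9 in controls had an unadjusted p of 0.657 there, with a fitted peak at ZT11.4 and a relative amplitude of 26.4%. A cosine and sine fit in edgeR gave an adjusted p of 0.574 (unadjusted 0.00475), where 4.44% of all genes had an unadjusted p under 0.05. With the ZT6 and ZT18 libraries as a further term the adjusted p was 0.0346 (unadjusted 9.84e-05), in a fit that called 0.368% of all genes and gave 6.22% an unadjusted p under 0.05. In mutants the same fits of Klf9 gave an adjusted p of 1.00 and of 0.686 (unadjusted 0.176 and 0.0255), where 4.16% and 6.66% of all genes had an unadjusted p under 0.05. With that term 5 of 10 members in mutants (Klf2, Klf4, Klf9, Klf10 and Klf13) and 2 of 10 in controls (Klf6 and Klf9) were under this line, with 0 in mutants at an adjusted p under 0.05, where 0.2% of all genes were. The difference in rhythm between genotypes was itself tested for Klf9, with an unadjusted p of 0.122 and an adjusted p of 0.807. In controls the i5 index set ZT14 and ZT22 apart from the other times, so that index and time are confounded there. In mutants the index set the ZT6 and ZT18 libraries apart from the rest.

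In mutants Klf13 was the only member with a meta2d p under 0.05, where 2.27% of all genes passed. In order from ZT2 its pairs of mice had 891 and 1004, then 1287 and 1324, 1577 and 1157, and 1576 and 1407 reads. The last pairs, of ZT18 and ZT22, had 1106 and 1303, and 1188 and 1022 reads. Klf13 was thus lowest at ZT2 and highest from ZT10 to ZT14, where the ZT14 mice are those with title numbers apart. Its p was 0.0378 and its q 1.00, with a peak at ZT12.2 and a relative amplitude of 18.8%. With 1 mutant library left out the p ran from 0.00834 to 0.153, and it was 0.05 or more in 7 of 12 cases, without either ZT2 mouse, either ZT14 mouse, replicate 1 of ZT10, replicate 2 of ZT18 or replicate 2 of ZT22. In controls Klf13 had 820 and 1159 reads at ZT14 and a meta2d q of 1.00. No member passed in controls, where 2.43% of all genes did.

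Klf2 in mutants had 2668 and 2065 reads at ZT2 and 6642 and 8394 at ZT18, a relative amplitude of 32.7% with a fitted peak at ZT16.2, and its meta2d p was 0.464. With the ZT6 and ZT18 libraries as a term in the edgeR fit, p was 0.000676 and the adjusted p 0.155. In controls its amplitude was 11.3% and the edgeR p with that term 0.161. When the difference in rhythm was tested across genotypes, 0 of 10 members passed an adjusted p of 0.05, against 0.0129% of all genes, and 0 of 10 passed an unadjusted p of 0.05, against 6.86% of all genes. DESeq2 also gave 0 of 10. In the edgeR fit on every gene with a read, the unadjusted p was 0.00389 for Klf2 and 0.0153 for Klf10. With the replicate number as a block it was 0.0387 for Klf10. With 1 library left out the lowest unadjusted p was 0.0175 for Klf10, 0.0232 for Klf9, 0.0296 for Klf7 and 0.0380 for Klf11. In the main fit Klf10 had the lowest unadjusted p, 0.0791. Its controls had 635 and 490 reads at ZT6 and 292 and 292 at ZT14, and its mutants 318 and 344 at ZT6 and 485 and 284 at ZT14. The 2 genes that passed over all genes tested were Arntl and Per2, both on the clock list.

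The comparison with the most calls among the members was that between the 2 sets of libraries. In the 8 libraries of ZT6 and ZT18, 6 of 10 members were higher at an adjusted p under 0.05 (edgeR, genotype as a covariate) and 0 lower, where 16.8% of all genes were called, 5.86% higher and 10.9% lower. These were Klf4, Klf2, Klf11, Klf6, Klf9 and Klf7. Because no ZT6 or ZT18 mouse belongs to the other set, time and library set cannot be told apart. Within controls alone 3 were called (Klf2, Klf4 and Klf11), where 6.87% of all genes were, and within mutants alone the same 6, where 9.91% were. ZT6 against ZT2 and ZT10 gave 4, without Klf7 and Klf9 (7.52% of all genes), and ZT18 against ZT14 and ZT22 gave Klf4 only, where 9.3% of all genes were called.

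Klf4 had 4528, 6313 and 9484 reads in the 8 libraries (lowest, median, highest) and 1838, 3537 and 5361 in the other 16, and 6 of the 8 lay above all 16. Klf4 thus differed by 0.89 on the log2 scale (standard error 0.15, adjusted p = 2.39e-05). Klf2 had 4290, 5376 and 8394 reads against 1745, 3174 and 6669, a log2 difference of 0.71 (standard error 0.16, adjusted p = 0.00133). The Klf2 ranges overlapped, since 1 of the 8 lay above all 16, and the 2 ZT14 mutants lay within the range of the ZT6 and ZT18 mice.

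Klf11 had 323, 440 and 567 reads against 214, 285 and 376 (0.57, standard error 0.12, adjusted p = 0.000686). Klf6 had 1988, 2636 and 3413 against 949, 1969 and 2385 (0.53, standard error 0.13, adjusted p = 0.00296). Klf9 followed with 0.42 (standard error 0.12, adjusted p = 0.0150) and Klf7 with 0.41 (standard error 0.10, adjusted p = 0.00248). Klf10 missed the threshold at 0.43 (standard error 0.16, adjusted p = 0.0542). In controls its 4 ZT6 and ZT18 mice had 490 to 635 reads and the 8 others 181 to 481, and in mutants 318 to 572 overlapped 171 to 485. The share of all genes whose control ranges part in this way was not counted. Klf3, Klf13 and Klf15 gave 0.13, 0.11 and -0.16 with adjusted p-values of 0.429, 0.563 and 0.870. With 1 library left out Klf3 ran from 0.08 to 0.16 and Klf13 from 0.08 to 0.14. Over the alternatives Klf3 ran from 0.06 to 0.20 and Klf13 from 0.07 to 0.16. The value of Klf15 ran from -0.56 to -0.02 with 1 library left out and from -0.68 to 0.23 over the alternatives, so that its sign was not kept.

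Other gene lists moved with the same split. Of 8 endothelial markers 6 were higher and 0 lower in the ZT6 and ZT18 libraries, with a median log2 fold change of 0.41, close to the median of 0.43 of the members. Of 13 immediate-early genes 7 were higher and 0 lower (median 0.52), and of 8 pericyte and smooth muscle markers 7 were higher (median 0.52). All 8 microglial markers (median -3.80) and 6 of 7 astrocyte markers (median -1.52) were lower. The median of all genes tested was -0.01. In bulk samples, fewer cells of a type and less RNA per cell cannot be told apart, and the part of cell make-up in the KLF differences was not tested.

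Set against the summed endothelial markers of the same library, the members fell on both sides of 0. As a description, the median log2 ratio to the marker sum was higher in the 8 libraries by 0.44 for Klf4, 0.36 for Klf2 and 0.23 for Klf11. It differed by 0.02 for Klf6, -0.01 for Klf7 and -0.03 for Klf9. For Klf3 and Klf13 the difference in this ratio was -0.28 and -0.16, for Klf10 0.10, and for the sparse Klf15 -0.67.

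**Figure D3:**
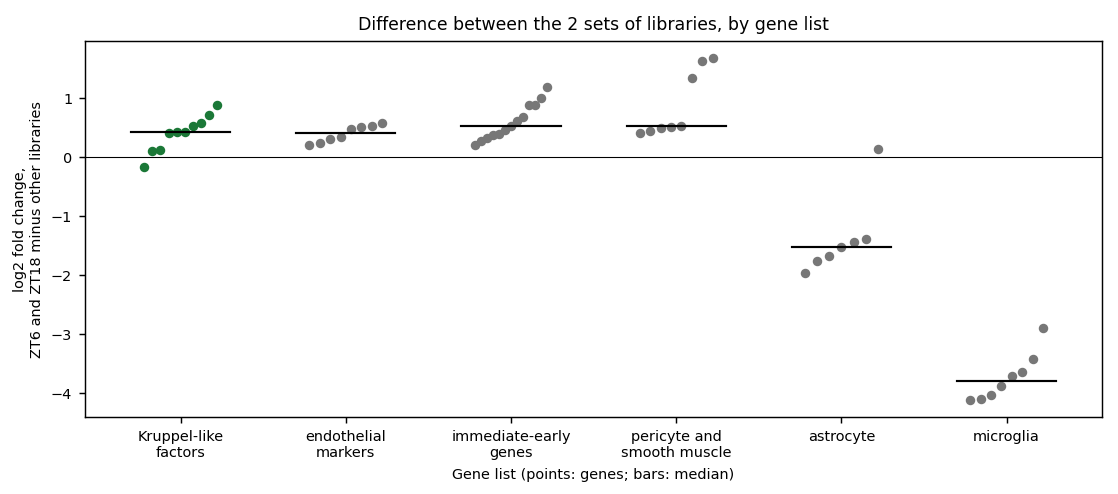
Log2 fold change of the ZT6 and ZT18 libraries over the other libraries for each gene (points) of 6 lists, with the list median as a bar. The Kruppel-like factors (median 0.43) lie beside the endothelial markers (0.41) and immediate-early genes (0.52), and microglial markers lie at a median of -3.80.

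The genotype difference was compared between the 2 sets of libraries. At an adjusted p of 0.05, 0 of 10 members and 0 of all 15493 genes (0%) differed between the sets in their genotype effect (edgeR), and at an unadjusted p under 0.05, 0 of 10 members and 678 genes (4.38%) did. DESeq2 called 1 gene, not a member. For Klf10 the log2 fold change between genotypes was -0.37 in the ZT6 and ZT18 libraries and 0.02 in the others, a difference of -0.39 with a standard error of 0.30. With 1 library left out this difference ran from -0.54 to -0.24.

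**Figure D4:**
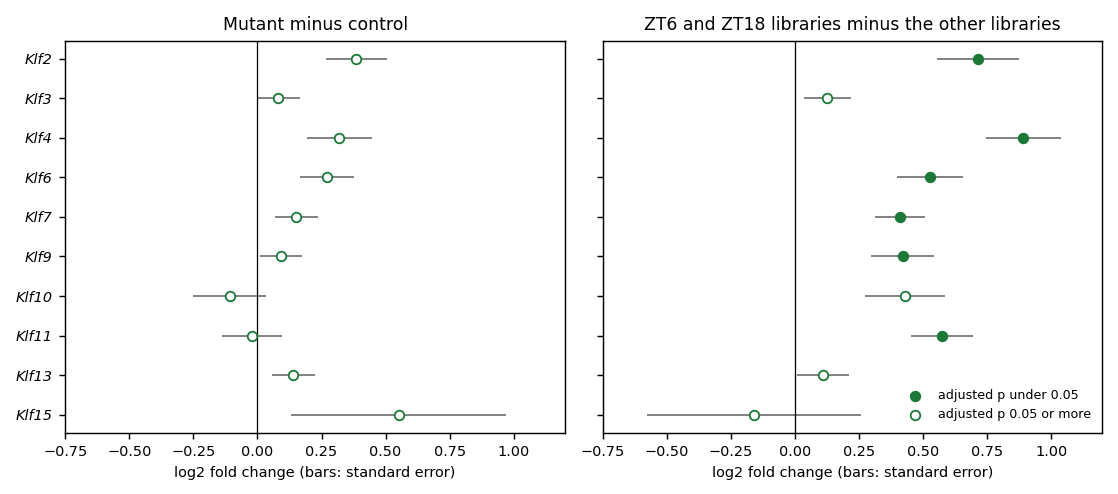
Log2 fold change and standard error (bars) of each member, at left mutant minus control and at right the ZT6 and ZT18 libraries minus the others, with filled points for an adjusted p under 0.05. The left panel holds 0 filled points, and the right panel holds 6, from 0.41 for Klf7 to 0.89 for Klf4.

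Mouse by mouse, Klf2, Klf4 and Klf6 deviated together. The deviations of the 24 mice from the means of their 12 groups of 2 correlated at r = 0.84 between Klf2 and Klf4, 0.86 between Klf4 and Klf6 and 0.71 between Klf2 and Klf6. These are descriptions over 12 differences between the mice of a group. For Klf2, Klf4, Klf6 and Klf10 the largest difference was that of the ZT22 controls, at 2.19-, 2.92-, 2.06- and 2.46-fold. The summed immediate-early genes of this pair were at 13406 and 5256 RPM. The r values were not computed without this pair, nor for other genes as a background. Klf11 stood at 0.65 to 0.69 with Klf2, Klf4 and Klf6, while Klf9 stood at -0.34 to -0.24 with the same 3 and Klf3 paired with Klf7 at 0.71. The summed immediate-early genes deviated with Klf4 (r = 0.89), Klf2 (0.81) and Klf6 (0.81), and the mitochondrial share deviated against Klf10 (-0.82) and Klf13 (-0.62). The 2 mice of a group differed by a median of 1.29-fold for Klf2, 1.16-fold for Klf4 and 1.11-fold for Klf9, and at most by 2.92-fold for Klf4, among the ZT22 controls.

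**Figure D5:**
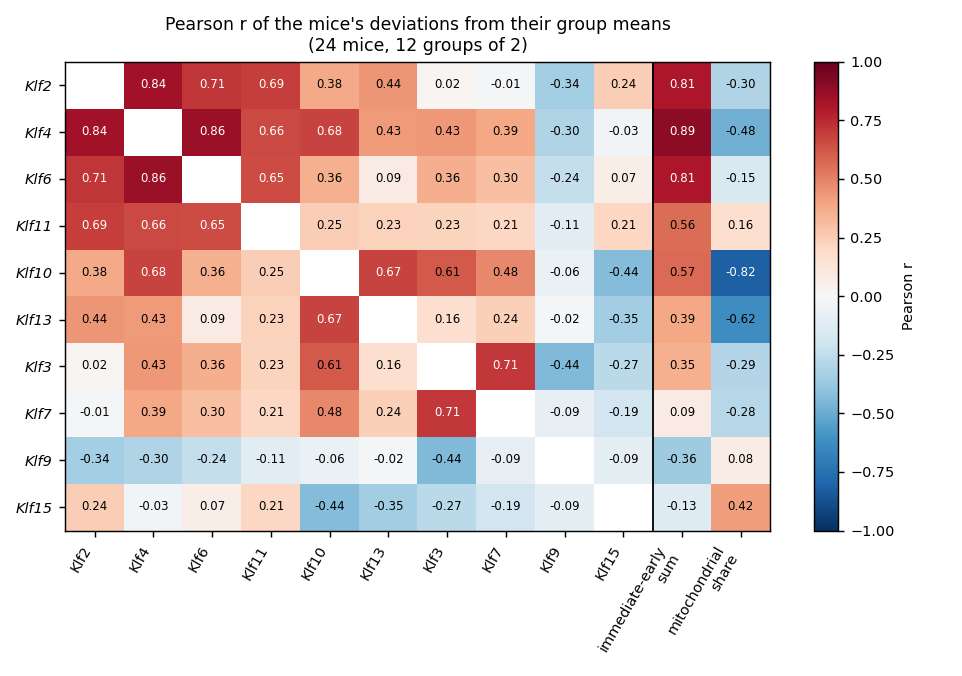
Pearson r, as colour and number, of the deviations of the 24 mice from their 12 group means between members and, right of the line, with the summed immediate-early genes and the mitochondrial share. Klf2, Klf4, Klf6 and Klf11 form a block of 0.65 to 0.86, and Klf9 lies at or below -0.02 with each other member.

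The genes most like each member were sought among those with a mean of 50 or more reads, by Pearson r over the 24 libraries, as a description that takes in the split between library sets. For Klf2 they were Id1 (r = 0.93), Dusp1 (0.92) and Klf4 (0.92), for Klf4 Dusp1 (0.94), Apold1 (0.92) and Klf2, and for Klf6 Dusp1 (0.93), Arid5a (0.92) and Apold1 (0.92). For Klf9 they were Tsc22d3 (0.83), the glucocorticoid-induced leucine zipper gene, Per1 (0.82) and Fzd4 (0.81). Klf10 was most like Ier5l (0.85), Rtp3 (0.83) and Mgp (0.82), and Klf7 most like Fgd6 (0.88), Tanc1 (0.87) and Rictor (0.87). Klf13 was most like Fbxo7 (0.83), Dab2ip (0.79) and Rnpepl1 (0.79), and Klf11 most like Ldlrad3, Ptprg and Esyt1 (0.78 each). The lowest values were those of Klf3 (Birc6 at 0.75, Klf7 and Tbx3 at 0.74) and Klf15 (Ppp1r16a at 0.73, Rfwd3 at 0.72 and Cib1 at 0.68).

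The pathway around Klf2 and Klf4 was read from 11 genes upstream and 13 endothelial targets. None of the 11 upstream genes, the kinases Map3k3, Map2k5 and Mapk7, 3 Mef2 genes, the cerebral cavernous malformation genes Krit1, Ccm2 and Pdcd10, their receptor Heg1 and the flow-sensing channel Piezo1, differed between genotypes at an adjusted p under 0.05. Their median log2 fold change of mutant over control was 0.02, and Mef2a, at 0.19 (standard error 0.09), had an unadjusted p of 0.0456. Of these 11, Heg1 alone was called in the ZT6 and ZT18 libraries, at 0.36 (standard error 0.08, adjusted p = 0.000909).

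Of the 13 targets 12 passed the filter, and 0 differed between genotypes over all genes. Thrombomodulin (Thbd), an anticoagulant receptor, came nearest, at 0.31 on the log2 scale, mutant over control (standard error 0.07, adjusted p = 0.0794), and the nitric oxide synthase Nos3 stood at 0.11 (standard error 0.08, adjusted p = 0.864). By the same edgeR test, in the ZT6 and ZT18 libraries 4 targets were higher, S1pr1 (0.61), Plpp3 (0.50), Thbd (0.45) and Nos3 (0.33), and 2 were lower, Ptgds (-1.99) and the chemokine Ccl2, given without a fold because several of these libraries held no read of it. S1pr1 and Plpp3 act in sphingosine and lysophospholipid signalling, and Ptgds is also made in large amounts by cells of the meninges and by oligodendrocytes. Of 6 corepressors used by KLFs, the SIN3, HDAC and CtBP genes, 0 were called in either comparison.

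Among 8 glucocorticoid-responsive genes, the list closest to the known inducer of Klf9 and Klf15, 1 differed between genotypes, Cdkn1a (0.99, standard error 0.18, adjusted p = 0.00446), also a p53 target. Tsc22d3 and Sgk1 stood at 0.27 and 0.24 between genotypes (standard errors 0.09 and 0.08, adjusted p = 0.372 and 0.349), and Fkbp5 and Zbtb16 at -0.24 and -0.40. In the ZT6 and ZT18 libraries 3 of the 8 were higher, Cdkn1a (1.07), Errfi1 (0.84) and Sgk1 (0.55). By meta2d in controls 1 of the 8 was called, Zbtb16.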

How the data were processed

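Strand-specific RNA libraries of sorted brain endothelial cells, 1 per mouse, were analysed as the table of gene values the authors deposited. Per the methods of the study, reads were aligned with STAR 2.5.3a, handled with SAMtools 1.3.1 and normalized by PORT with Ensembl annotation, with strand kept. The deposited values are whole-number counts of normalized reads, so the original depth is not in them, and they were treated as counts. A gene was tested if 6 libraries of a genotype had 5 reads or more. Level was tested by the quasi-likelihood test of edgeR 4.0.16 (R 4.3.3) with TMM factors (0.873 to 1.04), time point as a factor and Benjamini-Hochberg adjustment over 15493 genes. Genotype by cosine and sine, library set, and genotype by library set were tested in the same way, and DESeq2 1.42.0 was an alternative. Rhythm was tested by meta2d (JTK_CYCLE and Lomb-Scargle, period 24 h), rewritten in Python 3.11.15, with the threshold of the study, q under 0.6. The scripts were tested on simulated data. Levels per length used exons of GENCODE M21 (GRCm38). The genes named are the 10 members, genes of the lists described, and the 3 genes most like each member by Pearson r of log2(CPM + 1). The members and all lists were chosen with earlier results of these data known. Mice are separate animals.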

Additional observations from a re-analysis of the deposited data

How the results depend on the processing

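Between genotypes 0 of 10 members were called under 9 of 10 alternatives, and with every gene that had a read 2 were (Klf2 and Klf4), of 141 genes called. Counts over all genes went from 42 to 99 with DESeq2, 7 with the i5 index in the fit, 0 with no time term, 3 in the ZT6 and ZT18 libraries only and 28 in the others only. The log2 fold change of Klf11 turned from -0.02 to 0.12 once the i5 index entered the fit, and the cause was not tested. For the difference in rhythm 0 members were called under all 9 alternatives, while all genes gave 2, and 52 with DESeq2, 118 with every gene, 12 without ZT6 and ZT18 and 0 with a shared cosine and sine. For the 2 library sets 6 members were called, 3 with control libraries alone (1064 genes, against 2596 in all libraries), 4 with ZT6 against ZT2 and ZT10 only (1165 genes) and 1 with ZT18 against ZT14 and ZT22 only (1441 genes), and Klf7 and Klf9 were called in none of these 3. The mutant libraries alone called 6 (1535 genes), and the cause of the difference was not tested. These within-genotype and within-phase settings were chosen after seeing the data. Klf10 was also called there with deposited totals only (adjusted p = 0.0394) and with every gene (0.0327). For genotype by library set, 0 genes were called, and 18 with every gene. At the rhythm threshold of q under 0.6, in controls 0 members passed by meta2d (48 genes), 1 (Klf9) by the edgeR cosine and sine fit (133 genes) and 2 (Klf9 and Klf6) with the library set as a covariate (508 genes). In mutants 0 passed by meta2d (6 genes) and 2 (Klf2 and Klf13) with that covariate (366 genes). The cause was not tested. At an adjusted p under 0.05 these fits with the covariate called Klf9 in controls (57 genes) and 0 members in mutants (31 genes). Klf15 dropped out where 10 reads were required in every library.

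Leaving out each library in turn gave 0 to 0 members for level (25 to 68 genes), 0 to 0 for the difference in rhythm (1 to 5), 6 to 7 for library set (2352 to 2683), 0 to 0 for genotype by library set (0 to 0), and 0 to 0 for rhythm in controls (0 to 82) and mutants (0 to 24). With the replicate block, 0 members were called for level (45 genes), 0 for the difference in rhythm, 7 for library set (Klf10 added, adjusted p = 0.0333), 0 for genotype by library set and 0 for rhythm in controls or mutants. The replicate numbers are only names: same-numbered libraries of 66 pairs of groups correlated at -0.10 to 0.28 in their deviations (median 0.04), with 11 pairs over 0.1. The biological coefficient of variation over all genes was 42.4%, with 2 mice per group.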
